A study of Bos taurus with 8 samples.

Results

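Proteasome genes were described across the early lineages of cattle embryos. The genes were all rows of the deposited expression table whose symbol begins with PSM, a letter from A to G and a digit, and 48 of the table's 18825 genes matched. Of these, 47 code for proteasome subunits, activators, an inhibitor or assembly chaperones. PSMC3IP matched by its letters only and is a meiotic recombination factor, so it was kept in the counts and is not a subunit. A level of at least 10 CPM (a gene's reads as a share of all reads of a cell, on the usual scale) in 1 library average was reached by 46 of the 48, which were tested, while PSMB8 and PSMA8 stayed below it.

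The proteasome degrades proteins that carry ubiquitin chains. Its barrel-shaped 20S core is built of alpha and beta subunits, and the beta subunits PSMB5, PSMB6 and PSMB7 cut the substrate. The 19S cap, with a base of ATPases and a lid, binds ubiquitinated proteins, unfolds them and feeds them into the core. Other activators, such as PA28 (PSME1 with PSME2) and PA200 (PSME4), can dock on the core in place of the cap. The immunoproteasome exchanges the cutting subunits for PSMB8, PSMB9 and PSMB10, which in mammals are interferon-inducible and shape the peptides shown on MHC class I. Early embryos clear maternal proteins through this system.

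The cells came from wildtype bovine embryos only, taken 6, 7, 8 and 9 days after fertilization, and each carries a class from the authors' cell table. Day 6 held the class Morula and day 7 the class EB, day 8 held MB TE and MB ICM, and day 9 held LB PE, LB TE and LB EPI (TE, trophectoderm; ICM, inner cell mass; PE, primitive endoderm; EPI, epiblast; EB, MB and LB are spelled as in that table). Values were available for all but 2 of the listed cells, from 6 libraries, numbered as replicates 1 to 6. Each library pools barcoded cells, and all 48 distinct barcodes occurred in more than 1 library.

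Cells of a class were averaged within a library where it held at least 3 of them. This gave 16 averages from 276 cells. Morula had averages from replicates 4 and 6, EB from replicate 4 alone, MB TE from replicates 1, 2 and 3, MB ICM from replicates 1, 2 and 5, LB PE and LB TE from replicates 3 and 5, and LB EPI from replicates 2, 3 and 5. No library gave averages on both sides of the step between day 7 and day 8, and there effects of age and of library cannot be told apart. Depth was uneven, with a median of 150770.5 recovered reads per cell over all cells and only 39210 in LB PE. The smallest averages held 3 cells (MB TE, replicate 3) and 5 cells (MB ICM, replicate 5).

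The class labels were set beside the summed levels of marker lists. The summed level of 8 trophectoderm markers was between 28350 and 55960 CPM in the MB TE and LB TE averages and between 1413 and 5846 CPM in all other averages. KRT8 and KRT18 reached 27020 and 26200 CPM, while CDX2, GATA2 and TFAP2A stayed at or under 116.4 CPM in every average. The 8 hypoblast markers summed to 5878 and 6203 CPM in LB PE, but also to between 4048 and 4400 CPM in MB ICM and to 3249 CPM in EB. FN1 among them reached 4714 CPM in an average, GATA6 at most 540.2 CPM and GATA4 at most 40.68 CPM. SOX17 stayed at or under 1.44 CPM in every class. The 8 epiblast markers summed to between 2495 and 2969 CPM in LB EPI and to at most 1159 CPM in any other class. LIN28A among them stayed at or under 3.953 CPM. Markers of cumulus cells, blood, fibroblasts, oocytes and sperm each summed to at most 1179 CPM in any average, the highest being the cumulus list in Morula. The fibroblast list summed to 267 to 953.3 CPM in LB PE, 115.7 to 635.7 CPM in MB ICM and 60.68 to 603.2 CPM in Morula. It summed to at most 299.1 CPM in LB EPI, 133.1 CPM in MB TE and 106.8 CPM in LB TE. The part of such cells or RNA in the members' values was not tested.

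Proteasome transcripts were present in every class and took a narrow share of the reads. The 48 genes together made up 1.05% of a cell's reads on average in Morula, 0.823% in EB, 0.846% in MB TE, 1.1% in MB ICM, 0.742% in LB PE, 0.824% in LB TE and 0.964% in LB EPI. Single averages ran between 0.692% (LB PE, replicate 3) and 1.32% (MB ICM, replicate 5). The highest share came from the average of 5 cells, 1 of them with only 2633 reads, in which PSMA7 alone stood at 4427 CPM. Since every value is a share of a cell's reads, fewer transcripts per cell and more of other transcripts cannot be told apart.

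The tested proteasome genes varied less over the 16 averages than other genes did. The SD of log2(CPM + 10) over the averages had a median of 0.369 for the 46 genes, against 0.496 for the 12540 genes tested. At a mean level of 100 to 1000 CPM the medians were 0.356 for 31 proteasome genes and 0.515 for 1677 genes of any kind. PSME1 (SD 1.09), PSME4 (0.837) and PSMA7 (0.767) varied most among them, and PSMB6 (0.236) varied least. These are descriptions over averages that share libraries, without a test.

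**Figure D1:**
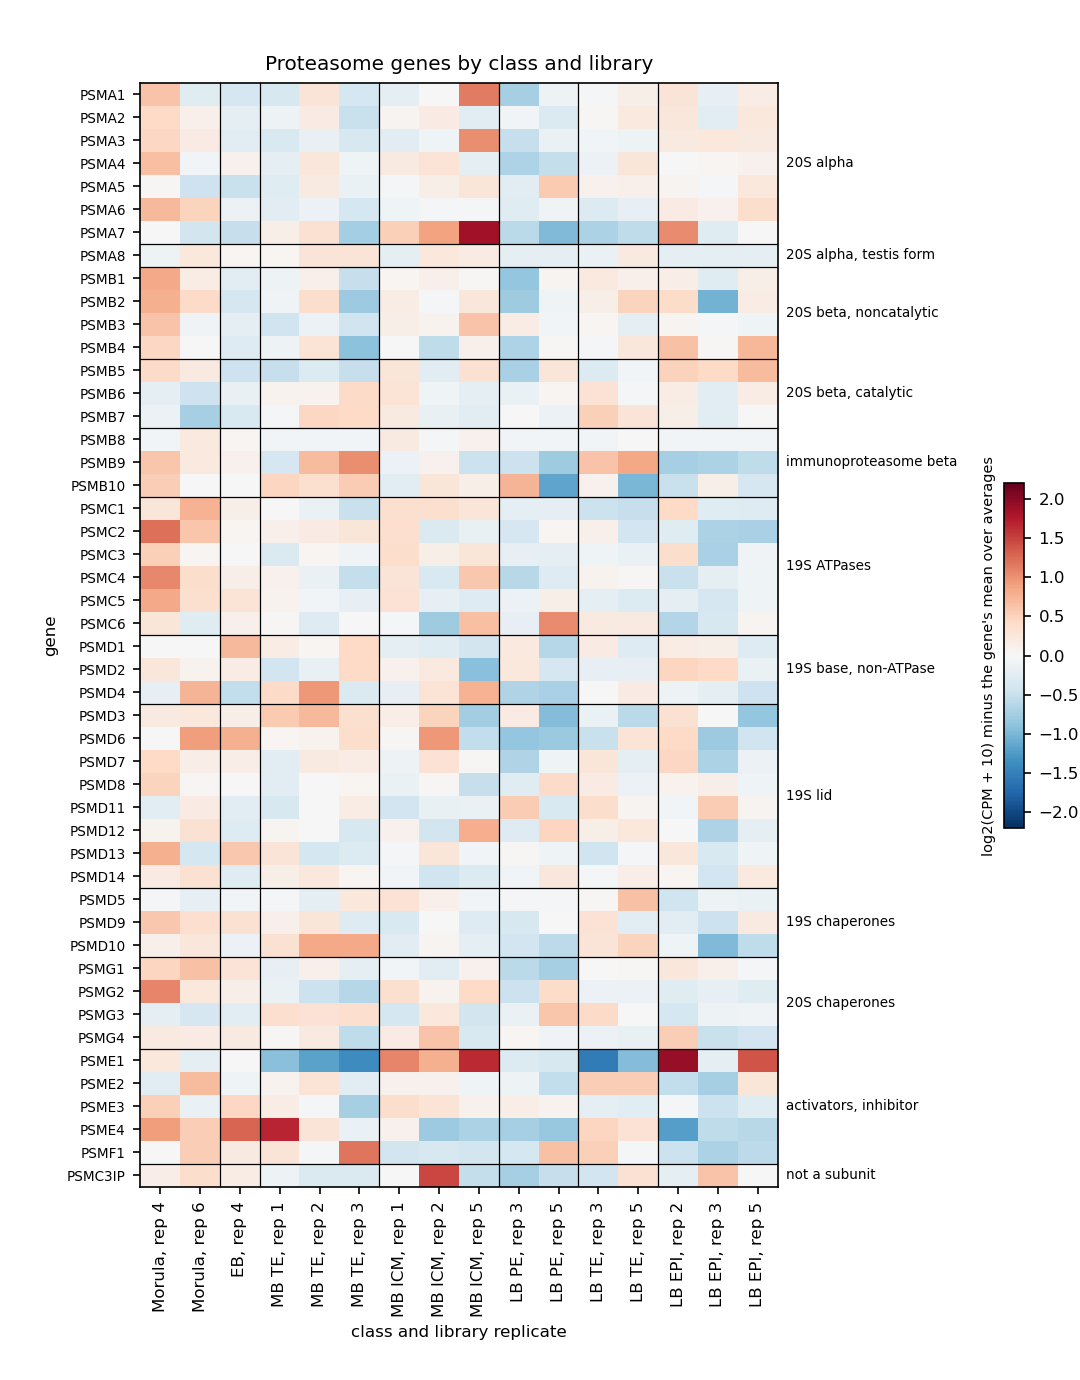
Level of the 48 genes (rows, grouped by role) in the 16 library averages (columns, grouped by class). Color shows log2(CPM + 10) minus the gene's own mean over the 16 averages, so levels are not comparable between rows. Most rows are pale, and PSME1 is blue in all MB TE and LB TE averages and red in all MB ICM averages and in LB EPI of replicates 2 and 5.

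Trophectoderm was compared with the inner cells of the same age, MB TE with MB ICM on day 8 and LB TE with LB EPI on day 9. PSME1, the alpha chain of the PA28 activator, was lower in trophectoderm on both days, by more than 2 log2 units. PSMB9, a cutting subunit of the immunoproteasome, and PSMD10 (gankyrin), a chaperone of 19S cap assembly, were higher in LB TE than in LB EPI. PSMA7, a subunit of the core's alpha ring, was lower in MB TE than in MB ICM, a call that rested on few cells. No other member passed the test in these comparisons.

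By number, 2 of the 46 tested members were called on day 8, both lower in MB TE, where 10.1% of all genes tested were called in either direction and 4.11% were called lower. On day 9, 3 members were called, 2 higher and 1 lower in LB TE, where 15.2% of all genes were called, 8.27% higher and 6.9% lower. A call means an adjusted p under 0.05 with limma and Benjamini-Hochberg adjustment over all 12540 genes tested. The median log2 change of the members was −0.02 on day 8 and 0.07 on day 9, and that of all genes −0.04 on both days. The called share of the members in either direction lay below the background in both comparisons, and on day 8 their share called lower was close to it.

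**Figure D2:**
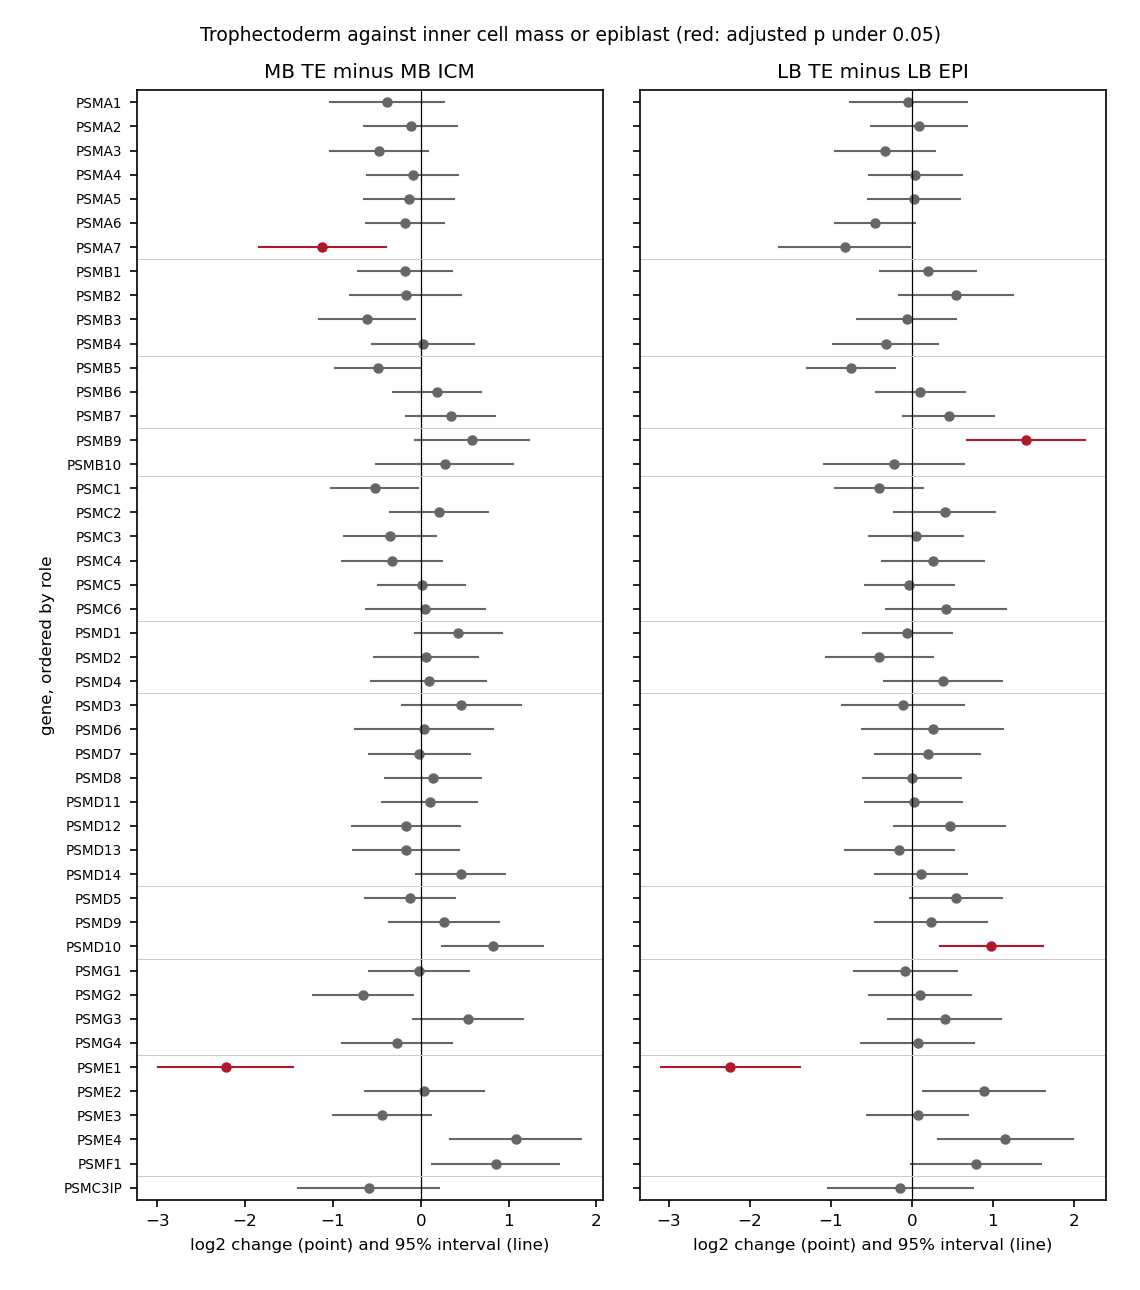
Log2 change (points) with its 95% interval (lines) for the 46 tested genes, MB TE minus MB ICM on the left and LB TE minus LB EPI on the right, in order of role. Red marks an adjusted p under 0.05: PSME1 and PSMA7 on day 8, and PSME1, PSMB9 and PSMD10 on day 9. PSME1 lies at −2.22 and −2.24, apart from all other genes in both panels.

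Among the activators, PSME1 averaged 84.6, 68.7 and 58.3 CPM in MB TE of replicates 1, 2 and 3, against 369, 299 and 548 CPM in MB ICM of replicates 1, 2 and 5. In LB TE it averaged 51.7 and 82.3 CPM in replicates 3 and 5, against 669, 144 and 456 CPM in LB EPI of replicates 2, 3 and 5. Every trophectoderm average was below every inner cell mass and epiblast average. The 548 CPM rests on 5 cells, 1 of them, with only 2633 reads in all, at 1519 CPM. The others were between 242.5 and 385.8 CPM. In MB TE of replicate 1, a single cell stood at 844.8 CPM and the others at 107.4 CPM or less. The epiblast average of replicate 3 was the low one of its class and lay at the level of LB PE in that library.

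The log2 change of PSME1 was −2.22 on day 8 (SE 0.369, adjusted p = 0.000415 with limma) and −2.24 on day 9 (SE 0.41, adjusted p = 0.000727 with limma). Within libraries that held both classes, the difference was −2.002 in replicate 1 and −1.97 in replicate 2 on day 8, and −1.32 in replicate 3 and −2.34 in replicate 5 on day 9. The difference between the 2 days' changes was −0.02, with a 95% interval of −1.17 to 1.13 (adjusted p = 1 with limma). This interval does not exclude a change of more than 1 log2 unit between the days.

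The level was also described in single cells, pooled over libraries and not taken as replicates. The median cell had 55.7 CPM of PSME1 in MB TE (37 cells) and 281 CPM in MB ICM (51 cells), and 58.5 CPM in LB TE (31 cells) and 377 CPM in LB EPI (45 cells). Within replicate 3 the day 9 medians were closer, at 56.5 CPM in LB TE and 97.4 CPM in LB EPI. The cells there overlapped, with 0 to 137.4 CPM in LB TE and 46.3 to 451.3 CPM in LB EPI. Within replicate 5 the medians were 67.4 CPM in LB TE and 416 CPM in LB EPI. At least 1 PSME1 read was found in all 37 MB TE cells and all 51 MB ICM cells, in 29 of 31 LB TE cells and in all 45 LB EPI cells. After each cell was thinned to 20000 reads, which left out 4 MB ICM and 2 LB EPI cells, the shares were 64.9% in MB TE and 95.7% in MB ICM, and 54.8% in LB TE and 95.3% in LB EPI. PSME1 was thus read in most trophectoderm cells, at a lower level per cell.

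**Figure D3:**
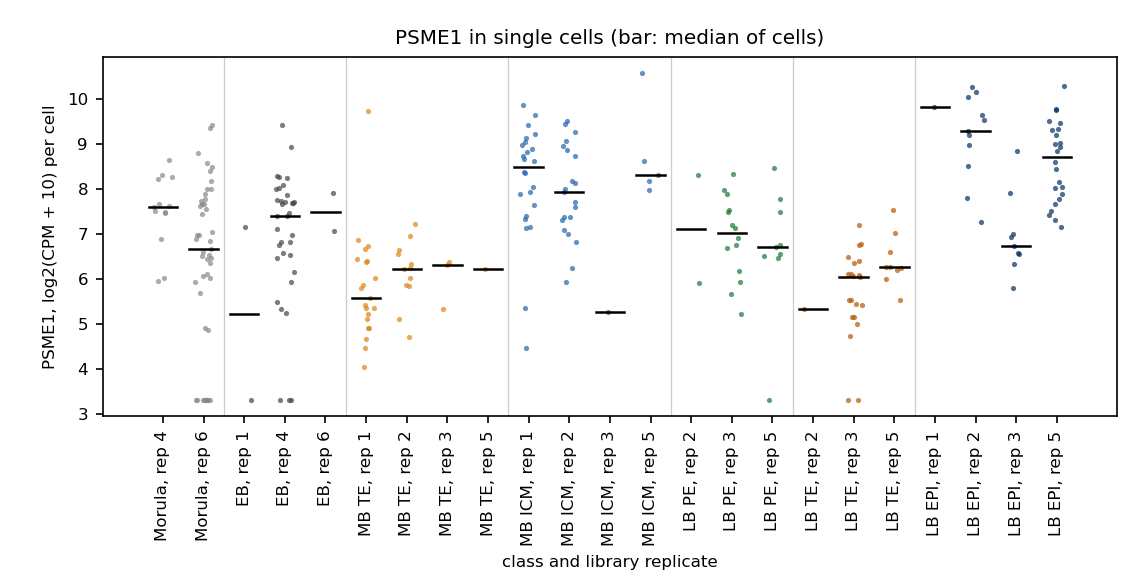
PSME1 in each cell with values, as log2(CPM + 10), by class and library replicate, with bars at the median of the cells. Columns with 1 or 2 cells entered no average. The trophectoderm medians of replicates 1, 2 and 3 on day 8 and of replicates 3 and 5 on day 9 lie below the inner cell mass and epiblast medians of the averaged libraries.

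The partner chain of PA28, PSME2, did not follow PSME1. It averaged 41.3, 50.1 and 31.6 CPM in MB TE, against 42.2, 42.2 and 36.0 CPM in MB ICM. It averaged 61.5 and 60.9 CPM in LB TE, against 23.5, 19.4 and 48.6 CPM in LB EPI. The day 8 groups overlapped and the day 9 groups did not, with log2 changes of 0.04 (95% interval −0.64 to 0.72, adjusted p = 0.973 with limma) and 0.89 (adjusted p = 0.108 with limma).

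PSME1 and PSME2 lie close together on chromosome 10 in RefSeq, with EMC9 between them, and the EMC9 and PSME1 records overlap. EMC9 itself showed log2 changes of 0.01 on day 8 and −0.02 on day 9. The labels do not say whether reads in the shared stretch were counted by strand.

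PSME4, the PA200 activator, leaned the other way. It averaged 188, 65.1 and 46.2 CPM in MB TE, against 56.1, 25.7 and 28.1 CPM in MB ICM, and 75.5 and 66.8 CPM in LB TE, against 16.8, 31.9 and 30.5 CPM in LB EPI. The day 9 groups did not overlap, while on day 8 the MB TE average of replicate 3 was below the MB ICM average of replicate 1. The log2 changes were 1.08 (adjusted p = 0.0611 with limma) and 1.15 (adjusted p = 0.0566 with limma), past the threshold in neither. With the library as a fixed replicate block both passed (1.09 and 1.13, adjusted p of 0.0427 and 0.0381 with limma). Of the 17 alternatives, only 5 called PSME4 on day 8 and only 6 on day 9. Without replicate 1, which held the average of 188 CPM, the day 8 change was 0.81 (adjusted p = 0.217 with limma).

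The remaining regulators passed no test. PSME3, the nuclear activator PA28 gamma, averaged 146, 126 and 73.9 CPM in MB TE, against 171, 162 and 138 CPM in MB ICM, a log2 change of −0.44. PSMF1, the inhibitor PI31, averaged 48.1, 36.9 and 98.9 CPM in MB TE, against 26.2, 27.7 and 26.4 CPM in MB ICM. PSMF1 averaged 59.2 and 36.6 CPM in LB TE, against 24.7, 19.7 and 22.1 CPM in LB EPI. No PSMF1 average of trophectoderm overlapped those of the inner cells, with log2 changes of 0.85 (adjusted p = 0.132 with limma) and 0.79 (adjusted p = 0.193 with limma). Whether averages overlap was not counted over all genes, so such statements have no background, for PSMF1 or any other member. With so few averages per class they are description only, not a result about the members.

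**Figure D4:**
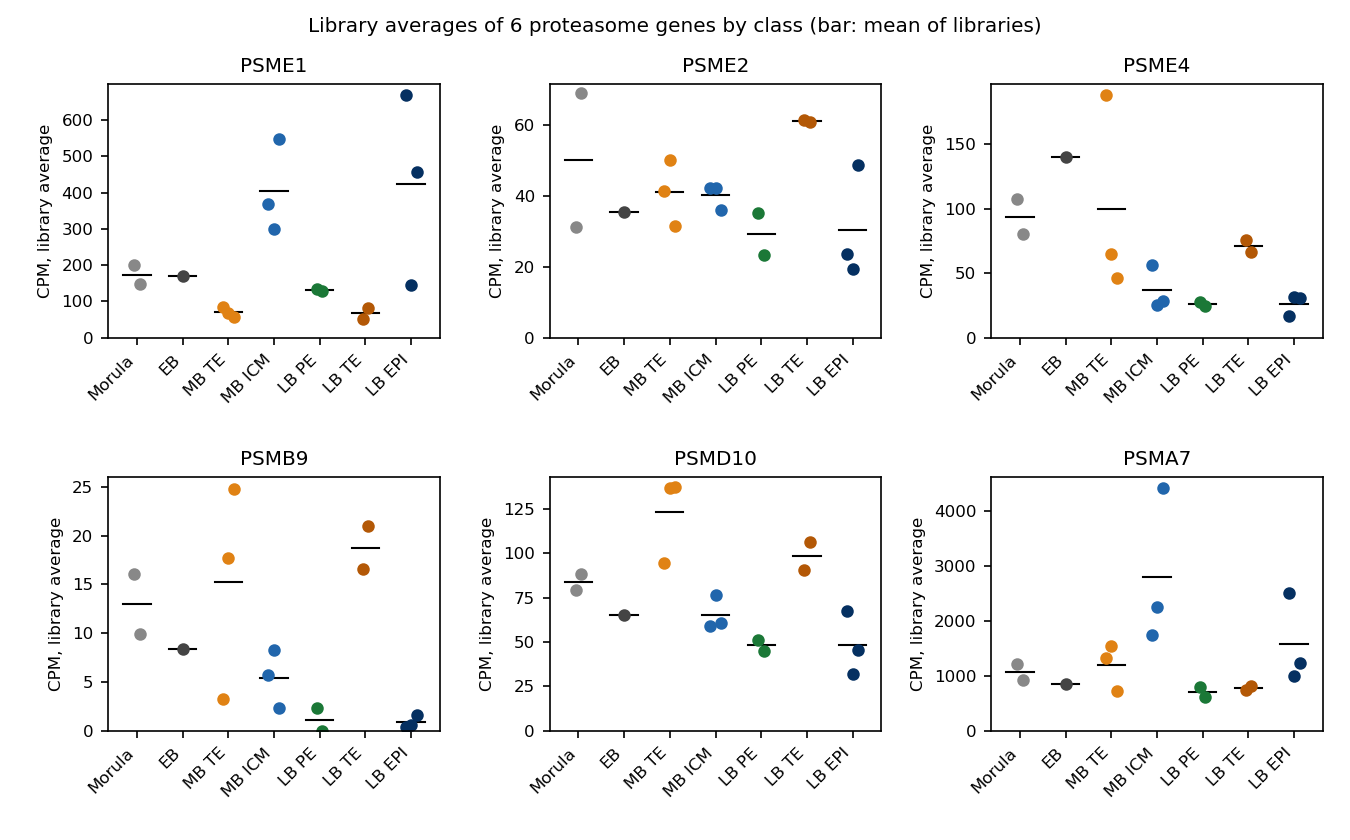
Library averages (points, in CPM from 0) of PSME1, PSME2, PSME4, PSMB9, PSMD10 and PSMA7 in the 7 classes, with bars at the mean of a class's libraries. PSME1 is low in MB TE and LB TE, where PSME4 and PSMD10 lie above MB ICM and LB EPI on average. The MB ICM point of PSMA7 at 4427 CPM is the average of 5 cells.

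Of the cutting subunits, PSMB5, the chymotrypsin-like one, averaged 392, 457 and 394 CPM in MB TE, against 681, 472 and 717 CPM in MB ICM. In LB TE it averaged 453 and 537 CPM, against 802, 765 and 917 CPM in LB EPI. All trophectoderm averages were the lower ones on both days, with log2 changes of −0.49 (adjusted p = 0.214 with limma) and −0.75 (adjusted p = 0.0561 with limma). With the library as a fixed replicate block the day 9 change passed (−0.78, adjusted p = 0.0382 with limma), but it was called in only 4 of 17 alternatives in all. PSMB7, the trypsin-like subunit, had log2 changes of 0.34 and 0.45 and passed neither test.

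PSMB6, the caspase-like subunit and the steadiest of the tested proteasome genes, averaged 279, 282 and 357 CPM in MB TE and 329, 248 and 227 CPM in MB ICM. It averaged 331 and 257 CPM in LB TE and 298, 223 and 298 CPM in LB EPI. The groups overlapped on both days.

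PSMB9, whose product takes the place of PSMB6 in the immunoproteasome, was near the limit of detection. It averaged 16.6 and 21.0 CPM in LB TE, from 60 and 54 reads, against 0.389, 0.631 and 1.66 CPM in LB EPI, from 1, 2 and 6 reads. The log2 change was 1.41 (SE 0.348, adjusted p = 0.00759 with limma), which the added 10 CPM understates. A read was found in 20 of 31 LB TE cells (64.5%) and in 8 of 45 LB EPI cells (17.8%). After thinning to 20000 reads, which left out 2 LB EPI cells, it was found in 9 of 31 LB TE cells and in 0 of 43 LB EPI cells. The call was lost without replicate 3 (log2 change 1.57, adjusted p = 0.0501 with limma) and without replicate 5 (1.30, adjusted p = 0.113 with limma).

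On day 8 PSMB9 averaged 3.27, 17.7 and 24.8 CPM in MB TE, against 5.75, 8.29 and 2.31 CPM in MB ICM. The groups overlapped, with MB TE of replicate 1 below MB ICM of the same library, and the log2 change of 0.58 did not pass (adjusted p = 0.278 with limma). The change on day 9 minus that on day 8 was 0.83 (95% interval −0.15 to 1.80, adjusted p = 0.628 with limma), so a difference between the days was not shown.

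PSMB8, another immunoproteasome subunit, was barely read. It had 0 reads in all MB TE, LB PE and LB EPI averages, where 3 reads would be 0.325, 1.53 and 0.329 CPM of the class total, and its highest average was 2.09 CPM in Morula. PSMB10 averaged 32.9, 29.8 and 35.6 CPM in MB TE, against 16.1, 27.3 and 23.8 CPM in MB ICM, without overlap (log2 change 0.27, adjusted p = 0.745 with limma). A read of it was found in 83.8% of MB TE cells and 45.1% of MB ICM cells, and in 32.4% and 25.5% after thinning to 20000 reads. On day 9 PSMB10 averaged 23.1 and 5.49 CPM in LB TE, against 11.97, 23.8 and 13.9 CPM in LB EPI, and the groups overlapped. PSMA8, the alpha subunit of the spermatoproteasome, had 0 reads in LB PE and LB EPI and at most 4.07 CPM in any average.

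In the alpha ring of the core, PSMA7 averaged 1326, 1536 and 724 CPM in MB TE, against 1747, 2247 and 4427 CPM in MB ICM (log2 change −1.12, SE 0.344, adjusted p = 0.0466 with limma). The value of 4427 CPM in replicate 5 comes from 5 cells, of which the one with 2633 reads, 45 of them PSMA7, stood at 17090 CPM. The other 4 cells were between 901 and 1584 CPM. With cells of at least 20000 reads only, the log2 change was −0.52 and the call was lost, as it was without replicates 3 (−0.82), 5 (−0.66) and 6 (−1.12). In all, the call was lost in 13 of 17 alternatives, among them the fit with the library as a fixed replicate block (−1.04, adjusted p = 0.0797 with limma). Within replicates 1 and 2 the difference was −0.40 and −0.55.

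The other 6 alpha subunits, PSMA1 to PSMA6, passed no test on either day. Neither did the noncatalytic beta subunits PSMB1 to PSMB4, the 6 ATPases of the 19S base (PSMC1 to PSMC6), its other subunits PSMD1, PSMD2 and PSMD4, or the 8 lid subunits. The median log2 change was −0.16 on day 8 and 0.16 on day 9 for the ATPases and 0.07 on both days for the lid. PSMD14, the lid's deubiquitinase, averaged 143, 156 and 134 CPM in MB TE and 124, 92.96 and 104 CPM in MB ICM, and 128 and 145 CPM in LB TE and 135, 94.8 and 154 CPM in LB EPI. Its groups did not overlap on day 8 and overlapped on day 9.

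A missed threshold does not show equal levels at this number of libraries. The 95% interval of the change lay within 1 log2 unit of 0 for 31 of 46 members on day 8 and for 26 of 46 on day 9. For the remaining ones a change of more than 1 log2 unit was not excluded.

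Of the assembly chaperones, PSMD10 was called on day 9. It averaged 90.8 and 106 CPM in LB TE, against 67.3, 32.1 and 45.7 CPM in LB EPI, with no overlap (log2 change 0.98, SE 0.306, adjusted p = 0.0323 with limma). On day 8 it averaged 94.5, 137 and 138 CPM in MB TE, against 59.1, 76.2 and 60.7 CPM in MB ICM, again with no overlap (log2 change 0.82, adjusted p = 0.064 with limma). The day 9 call was lost without replicate 3 (0.91, adjusted p = 0.167 with limma) and without replicate 5 (0.91, adjusted p = 0.199 with limma). PSMD10 lies on the X chromosome, and the labels name no sex for a cell.

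The other chaperones of the cap, PSMD5 and PSMD9, and those of the core, PSMG1 to PSMG4, passed no test. PSMG2, the partner of PSMG1 in alpha ring assembly, averaged 139, 109 and 96.2 CPM in MB TE, against 200, 165 and 212 CPM in MB ICM, without overlap (log2 change −0.66, adjusted p = 0.14 with limma). On day 9 it averaged 141 and 140 CPM in LB TE, against 127, 135 and 127 CPM in LB EPI, with both LB TE averages slightly above the others (log2 change 0.10). The PSMG2 record overlaps that of PTPN2, which had a day 8 log2 change of −0.49 (adjusted p = 0.3 with limma). In all, 15 members overlap another gene's record in RefSeq. The part of shared reads in their values was not tested. PSMG3 and PSMG4, the other chaperone pair, had day 8 log2 changes of 0.54 and −0.27.

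Primitive endoderm on day 9 was set against trophectoderm and epiblast of the same day. Against LB TE, PSMB9 was the only called member and was lower in LB PE. Against LB EPI, no member was called. The called share of all genes was 5.85% against LB TE, 3.39% in the lower direction, and 5.39% against LB EPI, and the members' medians were −0.13 and −0.06 log2 units.

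PSMB9 averaged 2.30 and 0 CPM in LB PE, against 16.6 and 21.0 CPM in LB TE, a log2 change of −1.37 (SE 0.376, adjusted p = 0.0322 with limma). The LB PE values rest on 4 reads in replicate 3 and none in replicate 5. With the library as a fixed replicate block the call was lost (adjusted p = 0.0536 with limma). The call was lost without replicate 2, 3 or 5 (log2 changes −1.37, −1.63 and −1.11). LB PE cells had a median of 39210 reads, against 196521 in LB TE, and the part of depth in this difference was not tested. After thinning to 20000 reads, which left out 5 LB PE cells, a PSMB9 read was found in 0 of 20 LB PE cells and in 9 of 31 LB TE cells.

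PSME1 stood between the other lineages in LB PE. It averaged 135 and 130 CPM there, against 51.7 and 82.3 CPM in LB TE and 669, 144 and 456 CPM in LB EPI. LB PE overlapped neither class, and within replicate 3 it was close to LB EPI. The log2 change was 0.91 against LB TE (adjusted p = 0.262 with limma) and −1.32 against LB EPI (adjusted p = 0.0647 with limma). Without replicate 3, which leaves a single LB PE average, the change against LB EPI was −2.05. The change against LB EPI was called in only 4 of 17 alternatives.

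PSMA7 averaged 803 and 619 CPM in LB PE, against 1747, 2247 and 4427 CPM in MB ICM on day 8, a log2 change of −1.77 (SE 0.394, adjusted p = 0.0458 with limma). It was the only member called in that comparison, where 0.702% of all genes were called and 0.112% were called lower. Without replicate 5, which holds the average of 5 MB ICM cells, the change was −0.90 and not called (adjusted p = 0.545 with limma). The call was also lost without replicate 1, 4 or 6 (−2.03, −1.78 and −1.77), and in 14 of 17 alternatives in all, the fixed replicate block among them.

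Over time, the members were followed across the days. No member was called between EB on day 7 and Morula on day 6, where 0.0797% of all genes were called. An unadjusted p under 0.05 with limma was found for 4 of 46 members and for 627 of all 12540 genes. Of the 46 log2 changes, 35 were negative (lower in EB), with a median of −0.31 against 0.00 for all genes. Oocyte markers (7 of 7 tested, median −0.69) and cumulus markers (5 of 6 tested, median −0.61) were negative too, none of them called. The oocyte list summed to 24.98 CPM in EB, against 38.7 and 300.2 CPM in Morula, and the cumulus list to 30.0 CPM in EB, against 6.00 and 1179 CPM in Morula. The part of such cells or RNA in the members' values was not tested. EB is a single average, from 35 cells of replicate 4, and was assumed in the fit to vary like the other classes.

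Replicate 4 held both ages, with 13 Morula cells at a median of 216390 reads and 35 EB cells at a median of 87902 reads. In it 38 of 46 members were lower in EB than in Morula, with a median difference of −0.32 log2 units, while 43.9% of all genes were lower, with a median of 0.03. In reads summed over the cells of each class, 39 members were lower in EB, and the exact 95% Poisson intervals of 27 of these did not meet those of Morula. Of the 7 higher ones, 3 had intervals apart. These intervals treat reads as independent and cover counting error at most, not differences between embryos or cells. Intervals apart were not counted over all genes, so the counts have no background and are not a result about the members. The part of read depth in the differences within this library was not tested.

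**Figure D5:**
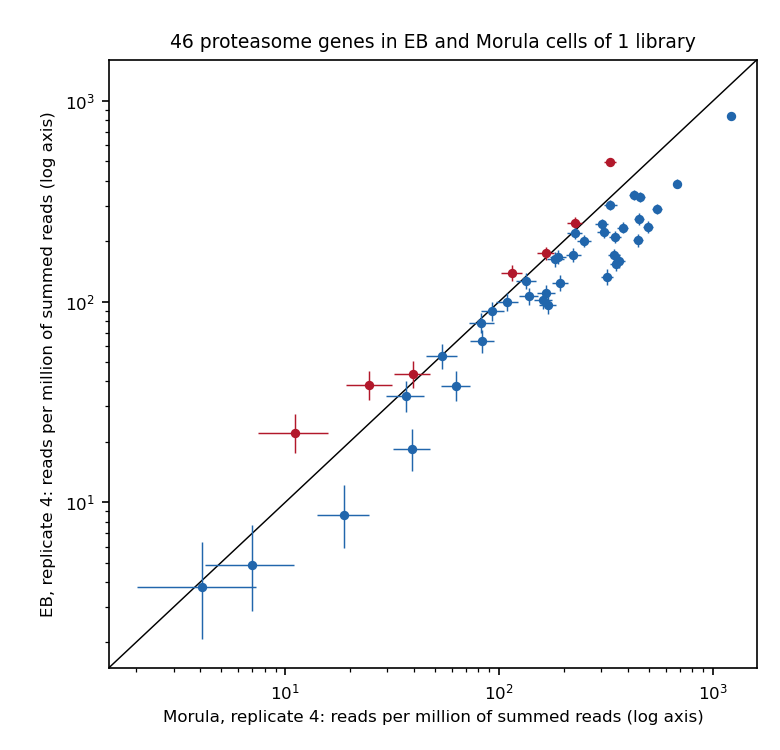
CPM of summed reads in EB cells (vertical, log axis) and Morula cells (horizontal, log axis) of replicate 4, for the 46 tested genes, with exact 95% Poisson intervals. Blue points, 39 of 46, lie under the line of equal values and red points above it.

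All 7 tested alpha subunits and all 4 noncatalytic beta subunits had negative changes in EB, with medians of −0.51 and −0.67. PSMB2 had 225 CPM in EB, against 508 and 394 CPM in Morula of replicates 4 and 6 (log2 change −0.996). PSMC2, an ATPase of the cap, had 160 CPM in EB, against 368 and 240 CPM in Morula (log2 change −0.91). PSMB5 had 408 CPM in EB, against 754 and 644 CPM in Morula (log2 change −0.78), and PSMA6 had 266 CPM in EB, against 484 and 412 CPM in Morula (log2 change −0.75). PSMD1, the large scaffold of the 19S base, went the other way, with 496 CPM in EB, against 300 and 299 CPM in Morula. The adjusted p with limma of each of these genes was above 0.9. The 13 proteasome-bound and assembly factors outside the symbol rule had a median of −0.04 in the same comparison.

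No member was called between MB ICM and EB (0.175% of all genes called) or between MB TE and EB (0.997%). An unadjusted p under 0.05 with limma was found for 3 members and 957 of 12540 genes in MB ICM against EB. For MB TE against EB it was found for 0 members and 1346 genes. PSME4 had 56.1, 25.7 and 28.1 CPM in MB ICM, against 140 CPM in EB (log2 change −1.73, adjusted p = 0.349 with limma). PSME1 had 369, 299 and 548 CPM in MB ICM and 84.6, 68.7 and 58.3 CPM in MB TE, against 170 CPM in EB and 200 and 147 CPM in Morula. The earlier classes thus lay between the later ones, with adjusted p of 0.668 and 0.501 with limma for MB ICM and MB TE against EB.

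Between day 9 and day 8 no member was called for LB EPI against MB ICM (5.1% of all genes called) or for LB TE against MB TE (0.191%). An unadjusted p under 0.05 with limma was found for 2 members and 2145 of 12540 genes in the first comparison. In the second it was found for 0 members and 701 genes. Against MB ICM, 33 of 46 members were negative in LB EPI, with a median of −0.19 against 0.02 for all genes. Within replicate 2, which held both classes, 22 of 46 were negative, with a median of 0.03 against −0.01 for all genes. Within replicate 5, 26 of 46 were negative, with a median of −0.08, while 38.7% of all genes were negative, with a median of 0.10. For LB TE minus MB TE the median was 0.07. No member was called for the difference between the trophectoderm changes of day 9 and day 8 (0.367% of all genes called). There an unadjusted p under 0.05 with limma was found for 0 members and 1204 of 12540 genes.

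The wider pathway was read from lists of other genes. None of the 13 proteasome-bound and assembly factors, among them the ubiquitin receptor ADRM1 and the core chaperone POMP, was called in any of the 11 comparisons. The called share of all genes ran from 0.0797% (EB against Morula) to 15.2% (LB TE against LB EPI). Of 6 genes for transcription factors tied to proteasome genes in mammals, NFE2L2 was higher in trophectoderm on both days, where 10.1% (day 8) and 15.2% (day 9) of all genes were called. It averaged 168 ± 9.02 CPM in MB TE and 69.6 ± 16.0 CPM in MB ICM (SD, n = 3 each; log2 change 1.19, adjusted p = 0.00898 with limma), and 225 ± 114 CPM in LB TE (SD, n = 2) and 108 ± 12.7 CPM in LB EPI (SD, n = 3; log2 change 0.94, adjusted p = 0.0483 with limma). Its day 9 call was lost without replicates 1, 2, 4, 5 or 6 (adjusted p of 0.0529 to 0.606 with limma), and the day 8 one without replicate 2 (adjusted p = 0.0702 with limma).

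STAT3, the other called gene of that list, was lower in MB TE than in MB ICM, at 3.65 ± 4.45 and 38.7 ± 13.4 CPM (SD, n = 3 each; log2 change −1.86, adjusted p = 0.000859 with limma). It was also lower in LB EPI than in MB ICM (log2 change −1.32) and higher in LB PE than in LB TE (log2 change 1.58). The LB EPI call was lost without replicates 1, 2 or 5 (adjusted p of 0.0967 to 0.128 with limma), and without replicate 3 the LB PE change was 0.82 and not called (adjusted p = 0.362 with limma). NFE2L1, the factor best known for raising proteasome genes when the proteasome is inhibited, was called in none of the comparisons. Of the 13 tested ubiquitin shuttles and p97 cofactors, the shuttle RAD23B alone was called, higher in MB TE than in MB ICM, where 10.1% of all genes were called. Its log2 change was 0.98 (adjusted p = 0.0349 with limma). That call was lost without replicates 1, 3 or 5 (adjusted p of 0.114 to 0.152 with limma).

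In the MHC class I peptide list, 2 of 8 tested genes were called higher and none lower in LB TE than in LB EPI, where 8.27% of all genes were called higher and 6.9% lower. The list's median log2 change was −0.55, since 5 of the 8 changes were negative, among them IRF1 (−1.28, adjusted p = 0.0514 with limma) and TAPBP (−1.28, adjusted p = 0.0841 with limma). An unadjusted p under 0.05 with limma was found for 6 of the 8 and for 3363 of all 12540 genes. TAP1, a peptide transporter chain whose gene neighbours PSMB9 and PSMB8 on chromosome 23, averaged 38.5 ± 2.53 CPM in LB TE (SD, n = 2) and 2.37 ± 0.808 CPM in LB EPI (SD, n = 3; log2 change 2.07, adjusted p = 0.0018 with limma). PDIA3, a chaperone of peptide loading, was the other one (log2 change 1.02, adjusted p = 0.0104 with limma), and its call was lost without replicates 2 or 5 (adjusted p of 0.0645 and 0.133 with limma). In LB PE TAP1 averaged 18.5 ± 8.80 CPM (SD, n = 2), where PSMB9 had 4 reads in all. B2M, the light chain of MHC class I, was lower in LB PE than in LB EPI (log2 change −2.22, adjusted p = 0.00837 with limma), a call lost without replicate 3 (adjusted p = 0.0609 with limma). It was also lower in LB PE than in LB TE (log2 change −1.76) and higher in LB EPI than in MB ICM (log2 change 1.68). These calls were lost without replicates 2, 3 or 5 against LB TE (adjusted p of 0.0678 to 0.19 with limma) and without replicates 1, 2 or 3 against MB ICM (adjusted p of 0.0934 to 0.189 with limma).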

How the data were processed

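Single bovine embryo cells were profiled by poly(A) RNA sequencing, with PCR amplification and pooling of barcoded cells, per the labels' protocols. Per the submitters' processing notes, HISAT2, featureCounts, Trim Galore and Seurat were used with the genome build ARS-UCD 1.2. Order, settings, strand and multi-mapping handling and the assignment of classes are not stated in those notes or labels. The values deposited by the authors are the natural log of 1 plus reads per 10000 of a cell's reads. All values (100%) were whole multiples of 1 read within 0.1 reads, so reads and CPM were recovered; CPM is not divided by gene length, so levels are not compared between genes. No molecular identifiers are stated, so reads may include PCR copies. Intervals and floors of 3 reads treat reads as independent and cover counting error at most.

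CPM was averaged over the cells of a class in a library (at least 3 cells). Genes with 10 CPM in at least 1 average were tested on log2(CPM + 10) with limma 3.58.1 in R 4.3.3 (trended, robust), all 7 classes in 1 fit and the library as a random replicate block (correlation within a library 0.18). The replicate numbers name libraries that hold several classes, which is where the pairing comes from. P-values were adjusted with the Benjamini-Hochberg method over 12540 genes. Adding 10 CPM understates changes of low genes. No label ties a library to separate embryos, so p-values reflect only how these libraries vary, which may be technical.

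Alternatives were other pseudocounts, filters, averages and scalings, the block left out or fixed, limma's voom on the recovered reads, cells of at least 20000 reads and leaving out each library. The members and lists were chosen with earlier results of these data known. Named genes were the called members, up to 3 called genes of each pathway list, and always the cutting subunits, immunoproteasome subunits, activators, PSMF1, PSMA8, PSMC3IP and PSMG1 to PSMG4; PSMD14, PSMB2, PSMC2, PSMA6, PSMD1 and NFE2L1 were named after their values were seen. Gene neighbours come from RefSeq's annotation of a later assembly. The table listed 2 cells without values, and libraries of edited embryos were not analysed here. The result of 1 further pathway list is not reported here.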

Additional observations from a re-analysis of the deposited data

How the results depend on the processing

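PSME1 stayed called in all 17 alternatives in both trophectoderm comparisons, with log2 changes of −2.36 to −1.79 (adjusted p of 0.000158 to 0.0105 with limma) on day 8 and −2.65 to −1.80 (0.000153 to 0.0311) on day 9. For MB TE against MB ICM, 2 members were called, 1 with no filter, median-of-ratios scaling or cells of at least 20000 reads, 5 with the mean of log2 values, 3 with summed reads, and 1 to 2 when a library was left out. The genes differed where the count stayed at 2: PSME1 came with PSME4 in place of PSMA7 with the fixed block, voom or at least 5 cells, and with PSMD10 at a pseudocount of 50 CPM. For LB TE against LB EPI the count of 3 became 7 with voom and 1 to 4 when a library was left out. For LB PE against LB EPI the count of 0 became 2 with the mean of log2 values or summed reads, 1 with voom, 3 with cells of at least 20000 reads and 0 to 1 when a library was left out. For LB PE against LB TE the count of 1 became 5 with the mean of log2 values, 0 with a pseudocount of 50 CPM, no filter or voom, and 0 to 1 when a library was left out. For LB PE against MB ICM the count of 1 became 0 with a pseudocount of 1 or 50 CPM, no filter, the mean of log2 values, summed reads, median-of-ratios scaling, voom or cells of at least 20000 reads, and 0 to 1 when a library was left out. In the other comparisons no member was called under any alternative that gave a value. The cause of these shifts was not tested. A planned count test by another tool was left out, and the recovered reads were tested with voom.

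Without the replicate block the counts were 1 for MB TE against MB ICM, 0 for LB PE against LB TE and 0 for LB PE against MB ICM. With the replicate block as a fixed term they were 5 for LB TE against LB EPI, 0 for LB PE against LB TE and 0 for LB PE against MB ICM. The fixed block could not be fitted between days 6 or 7 and days 8 or 9, and no EB value exists without replicate 4. Small changes that passed no test turned sign. PSME2 on day 8 was −0.0147 with summed reads, −0.2023 with voom, −0.0877 with deeper cells and between −0.0463 and 0.1778 when a library was left out. PSMB9 in LB PE against LB EPI ran between −0.058 and 0.1879 when a library was left out. The PSME1 change of day 9 minus that of day 8 was 0.0196 with the mean of log2 values, 0.0693 with summed reads, 0.0064 with median-of-ratios scaling, 0.0588 without the replicate block, 0.026 with voom, and between −0.4446 and 0.5166 when a library was left out.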

Other observations

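In all, 10 cells stood in a class with fewer than 3 cells in their library and entered no average. PSME1 was at 65.1 CPM in the MB TE cell of replicate 5 and at 28.9 CPM in the MB ICM cell of replicate 3. On day 9 it was at 50.6 and 310.5 CPM in the LB PE cells of replicate 2, at 30.8 CPM in the LB TE cell of replicate 2 and at 897 CPM in the LB EPI cell of replicate 1. The MB ICM cell lay below the MB TE cell, from 3 reads. PSMB9 was read in the LB TE cell (9.37 CPM), the MB TE cell (16.3 CPM) and 1 EB cell of replicate 6 (44.8 CPM), and not in the other cells.

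PSMC3IP, which only shares the letters of the rule, was at most 15.7 CPM in all averages except MB ICM of replicate 2, where it reached 36.1 CPM.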
